A study of Mus musculus with 458 samples.

Results

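PU.1 and the receptor for granulocyte colony-stimulating factor (G-CSF) were followed here in single haematopoietic stem cells (HSCs), together with 7 other regulators and receptors of the myeloid lineage. The 9 genes were chosen by symbol: Sfpi1 (the older symbol of Spi1, which encodes PU.1), Csf3r, Csf1r, Csf2ra, Cebpa, Cebpb, Irf8, Gfi1 and Mpo. All 9 of 9 were found among the 22645 gene symbols of the expression table, and each was read in single cells of 6 mice. Mice had received a single Vwf+ HSC each, and donor-derived HSCs were later sorted from their marrow by the phenotype LSK CD150+CD48-CD45.2+ (C57BL/6 strain). The MUL mice showed multilineage reconstitution, the PEM mice were restricted to platelets, erythrocytes and myeloid cells, and the PLT mice to platelets. There were 2 mice in each of the 3 groups, with 163 MUL cells (78 and 85), 118 PEM cells (93 and 25) and 177 PLT cells (93 and 84). Each mouse therefore stands for 1 transplanted clone, and no age or further treatment was given in the labels used here.

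PU.1 is an ETS-family transcription factor that binds purine-rich DNA with a GGAA core and is needed for the formation of macrophages, neutrophils and B cells. It acts in a dose-dependent way, and in blood progenitors it and GATA1 oppose each other's activity. Among the genes associated with PU.1 are those of the colony-stimulating factor receptors. Csf3r encodes the G-CSF receptor, which drives neutrophil production and HSC mobilisation. Csf2ra encodes the ligand-binding chain of the granulocyte-macrophage colony-stimulating factor (GM-CSF) receptor, and Csf1r the macrophage colony-stimulating factor receptor. C/EBPα (Cebpa) and C/EBPβ (Cebpb) direct steady-state and emergency granulopoiesis, IRF8 directs monocyte and dendritic cell fate, and GFI1 restrains HSC proliferation and favours neutrophils over monocytes. Mpo encodes myeloperoxidase, a granule enzyme of neutrophil precursors.

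Sfpi1 lies on chromosome 2 (chr2:91082390-91115756, plus strand) and Csf3r on chromosome 4 (chr4:126024550-126044440, plus strand) in GENCODE M21 on GRCm38. To see which members carry the letters of a PU.1-type site next to their start, the sequence GAGGAA was searched on both strands of the 250 bases before each RefSeq start (GRCm38.p6). It was met in 23.3% of all 32851 promoters of that length, so a match is common. Of the 7 members searched, Csf3r held 1 match, Csf2ra 2 and Mpo 2, and the others held none. Sfpi1 and the third receptor gene, Csf1r, were not among those searched. The stretches of 30 bases around the matches of Csf3r and Csf2ra, 5′ to 3′ with GAGGAA in capitals, were as follows, and those of Mpo are not shown.
Csf3r (chr4:126024561-126024590, plus strand): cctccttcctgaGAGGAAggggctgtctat
Csf2ra (chr19:61228412-61228441, minus strand): cctgcagatGAGGAAGAGGAAgcgggagac
The Csf3r match began 86 bases before the RefSeq start, within the first exon of a GENCODE transcript, where it is annotated as untranslated. In Csf2ra the matches began 14 and 8 bases before the RefSeq start and lay directly side by side. These matches describe the letters and are not measured binding sites.

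Values are RPKM, a read density corrected for gene length and for the sequencing depth of the cell, as deposited. The median depth of a mouse lay between 4.28 M and 5.32 M mapped reads per cell. At the median depth, 1 RPKM corresponds to about 13.2 reads for Sfpi1 and 17.7 for Csf3r with GENCODE exon lengths, which may differ from those the authors used. The sorted cells carried stem cell markers: all 11 of 11 were above 0 in every mouse, and 98.7% to 100% of the cells of a mouse had at least 3. Of the neutrophil markers, 5 to 10 of the 11 in the table were above 0 in a mouse. Their summed mean RPKM was 95.8 and 996 for MUL, 33.8 and 15138 for PEM, and 3009 and 157 for PLT. The monocyte and macrophage markers summed to 24.7 and 74.9, 88.9 and 159, and 136 and 53.9 RPKM in the same order. The titles of both MUL mice share a prefix and every other mouse has its own. What that prefix marks is not stated, and it and the group cannot be told apart.

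Sfpi1 was at 0 or at a trace in most of these cells and high in a smaller set. It was listed at 0 in 269 cells and at a trace below 1 RPKM in 89. It lay between 1 and 10 RPKM in 15 cells and at 10 RPKM or more in 85, with a highest value of 806 RPKM. At a threshold of 1 RPKM it was found in 100 cells. Cells just inside and outside that threshold were few, with 4 cells from 1 to 2 RPKM and 13 from 0.5 to 1 RPKM.

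The share of cells with Sfpi1 at 1 RPKM or more was lowest in both PLT mice. It was 18 of 78 cells in MUL mouse 1, or 23.1% (exact Clopper-Pearson 95% interval 14.3 to 34.0, counting error only), and 27 of 85 in MUL mouse 2, or 31.8% (22.1 to 42.8). It was 37 of 93 cells in PEM mouse 1, or 39.8% (29.8 to 50.5), and 4 of 25 in PEM mouse 2, or 16% (4.54 to 36.1). In the PLT mice it was 6 of 93, or 6.45% (2.40 to 13.5), and 8 of 84, or 9.52% (4.2 to 17.9). The PLT shares thus lay below those of the other 4 mice, while the wide interval of PEM mouse 2, with 25 cells, overlapped both PLT intervals. At 10 RPKM or more the shares were 17.9% and 29.4% in MUL, 36.6% and 12% in PEM, and 3.23% and 7.14% in PLT, in the same order. Over all 11337 tested genes, 22.5% had PLT shares at this threshold below both MUL mice and 33.7% below both PEM mice, so the order alone is common.

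**Figure D1:**
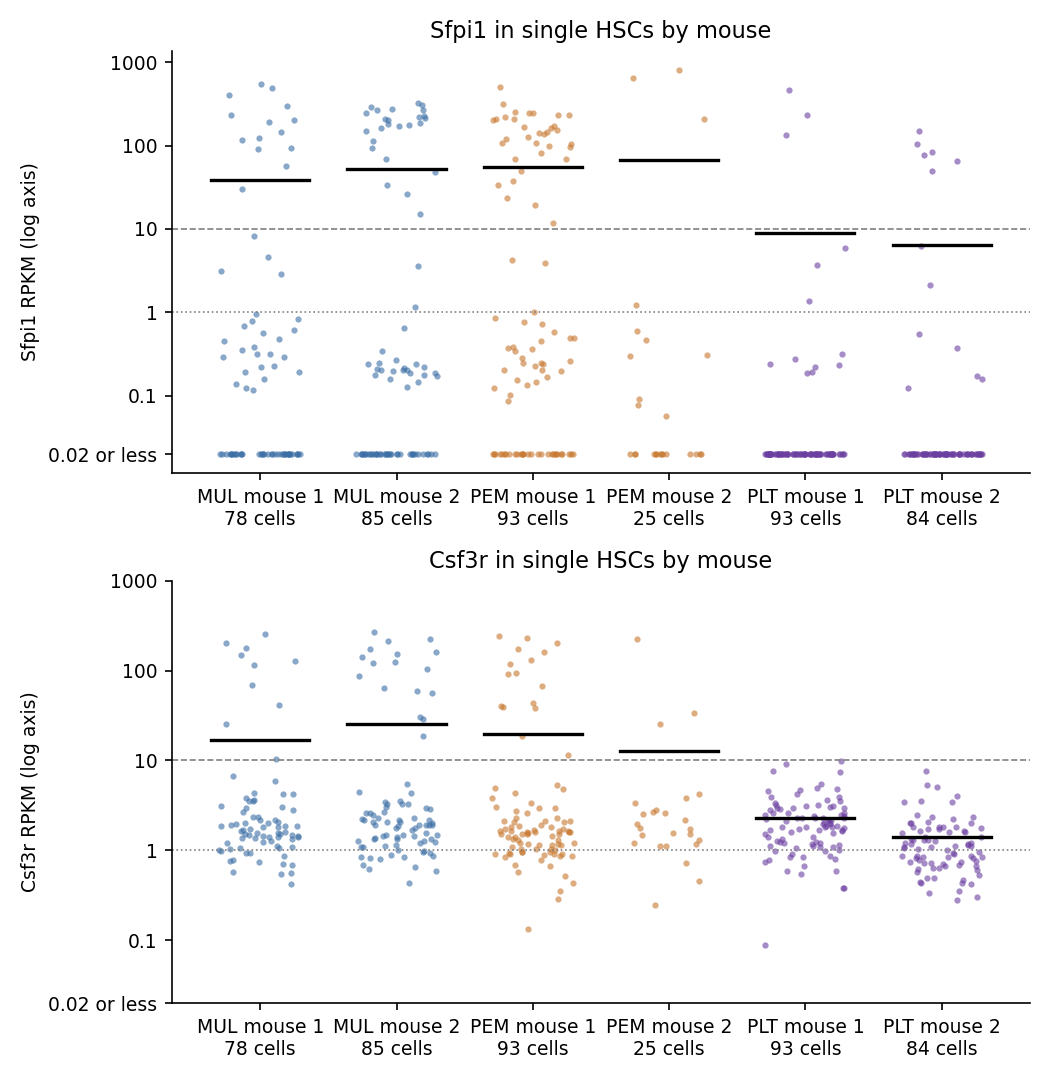
Each point is 1 cell, with Sfpi1 (top) and Csf3r (bottom) RPKM on a log axis by mouse; values of 0.02 RPKM or less are drawn at 0.02, horizontal bars are mouse means, and the dotted and dashed lines stand at 1 and 10 RPKM. Sfpi1 splits into cells at 0, traces and a high band, whereas Csf3r has a low band in every mouse and a high band in the MUL and PEM mice, with 0 PLT cells at 10 RPKM or more.

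The level among cells that had Sfpi1 varied within every mouse. Among cells at 10 RPKM or more, the median was 168 and 184 RPKM in MUL, 139 and 649 in PEM, and 231 and 80.7 in PLT. These medians rest on 14, 25, 34, 3, 3 and 6 cells. The PLT medians lay on either side of those of both MUL mice, so among positive cells no lower level was seen in common to both PLT mice. The cells at 10 RPKM or more carried 98.2% to 99.8% of the summed Sfpi1 of a mouse. A single cell carried 55.1% of it in PLT mouse 1 and 48.3% in PEM mouse 2, against 7.25% to 27.6% in the others.

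Mean Sfpi1 over all cells of a mouse was 39.2 and 52.7 RPKM in MUL, 55.2 and 66.7 in PEM, and 9.05 and 6.42 in PLT. Both PLT mice lay below the other 4 without overlap, and both PEM mice lay above both MUL mice. Without the highest cell of PEM mouse 2 its mean was 35.9 RPKM, below both MUL means, so that the order of PEM and MUL rests on that cell. Group means were 45.9 ± 9.59 in MUL, 61.0 ± 8.15 in PEM and 7.73 ± 1.86 in PLT (SD, n = 2 mice each). On the scale of log2(mean RPKM + 1) the difference was -2.43 ± 0.49 (SE) for PLT minus MUL and -2.84 ± 0.49 for PLT minus PEM. In limma over 11337 genes neither passed (adjusted p = 0.378 and 0.539; unadjusted p = 0.000968 and 0.000344). By unadjusted p, Sfpi1 ranked 29 and 5 among these genes. PEM minus MUL was 0.41 ± 0.49 (limma adjusted p = 0.941). With log2 values averaged over cells, PLT minus MUL was -1.46. In PLT minus MUL 0.00882% of all genes passed, 1 gene that is no member, and 0% passed in the other comparisons. With unadjusted p under 0.05 there were 953, 634 and 949 genes in PLT minus MUL, PEM minus MUL and PLT minus PEM. Mouse means of PLT without overlap below MUL were met in 24.9% of all genes, below PEM in 21.9%, and PEM above MUL in 17.5%. The comparisons with PLT share the PLT mice. Shares are given without a test, since with 2 mice a group the smallest exact two-sided permutation p is 0.333.

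Sfpi1 shares were also read within the P1 and P2 cells of each mouse and within cells of like complexity. P1 and P2 are marks in the titles, and whether they were separate plates is not stated. The share at 1 RPKM or more was 14.3% to 55.3% over the 8 such sets of MUL and PEM. It was 4.26% to 14% over the 4 sets of PLT. Median detected genes per cell differed among mice, from 1869 in PLT mouse 1 to 3186 in PEM mouse 1. In cells with 1800 to 3000 detected genes the shares were 22.6% and 25.8% in MUL, 41.7% and 18.2% in PEM, and 10.9% and 5.36% in PLT. Without cells with at least 3 neutrophil markers above 0, they were 22.1% and 31.1%, 39.8% and 15.8%, and 6.25% and 9.88%. The PLT shares stayed lowest in each of these readings at 1 RPKM. At 10 RPKM or more this did not hold within the P1 cells. The share there was 11.6% in PLT mouse 2 and 7.14% in PEM mouse 2, the latter with 14 cells. That exclusion took 0 cells from PEM mouse 1. A neutrophil marker at 10 RPKM or more was met in 16 of 100 Sfpi1 cells and 26 of 358 others, and within PEM mouse 1 in 8 of 37 and 2 of 56. The part of these transcripts in the Sfpi1 shares was not tested.

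Csf3r had another distribution. It was above 0 in every cell of every mouse, as were 370 genes in all, of which 208 had a median under 10 RPKM. Below 10 RPKM lay 412 cells with a median of 1.51 RPKM and a 95th percentile of 4.32, and 46 cells lay at 10 RPKM or more with a median of 109 and a highest value of 269. The medians of these bands were 71.9-fold apart, and between 5 and 20 RPKM there were 16 cells. The threshold of 1 RPKM fell inside the low band, where 178 cells lay from 1 to 2 RPKM and 84 from 0.5 to 1. At that threshold 352 cells counted, namely 65 of 78 and 70 of 85 in MUL, 72 of 93 and 22 of 25 in PEM, and 77 of 93 and 46 of 84 in PLT. What makes up the low band was not tested. The threshold of 10 RPKM is therefore used below for Csf3r beside that of 1 RPKM.

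At 10 RPKM or more, Csf3r was found in MUL and PEM cells and in no PLT cell. It was present in 10 of 78 cells of MUL mouse 1, or 12.8% (95% interval 6.32 to 22.3), and in 17 of 85 of MUL mouse 2, or 20% (12.1 to 30.1). It was present in 16 of 93 cells of PEM mouse 1, or 17.2% (10.2 to 26.4), and in 3 of 25 of PEM mouse 2, or 12% (2.55 to 31.2). In the PLT mice it was present in 0 of 93 cells, which allows a share of up to 3.23% by 3 counts and 3.89% by the exact interval, and 0 of 84, which allows up to 3.57% and 4.30%. The highest PLT values were 9.85 and 7.56 RPKM, and 8 PLT cells lay from 5 to 10 RPKM. MUL and PEM shares overlapped each other. The lower interval bounds of 3 mice (MUL 1, MUL 2 and PEM 1) lay above the PLT limits, whereas the interval of PEM mouse 2, with 25 cells, reached below them. These intervals cover counting error within a mouse and are no test between groups. PLT shares at this threshold lay below both MUL mice in 22.5% of tested genes and below both PEM mice in 33.7%.

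The low band of Csf3r did not set PLT apart in the same way. Its median was 1.54 and 1.63 RPKM in MUL, 1.43 and 1.64 in PEM, and 1.89 and 1.1 in PLT, so that the PLT mice held its highest and its lowest value. In the high band the median was 120 and 122 RPKM in MUL and 92.4 and 33.9 in PEM. In PEM mouse 2 it rests on 3 cells, of which 1 carried 68.8% of the summed Csf3r of that mouse.

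Csf3r in MUL and PEM was met in both the P1 and the P2 cells of each mouse. At 10 RPKM or more it was found in each of these 8 sets, in 7.14% to 24.4% of cells. In each of the 4 PLT sets it was found in 0%. Because mature neutrophils carry Csf3r at high levels, cells with neutrophil markers were counted among the Csf3r-high cells. Pooled over mice, 6 of 46 Csf3r-high cells had at least 3 neutrophil markers above 0, and 28 of the 412 others had. All PLT cells are among the others, and 13 of 93 and 3 of 84 of them had such markers. Within the MUL mice the counts were 1 of 10 Csf3r-high cells against 0 of 68 others, and 4 of 17 against 7 of 68. Within the PEM mice they were 0 of 16 against 0 of 77, and 1 of 3 against 5 of 22. The neutrophil gene S100a8 had a median of 0 in both pooled sets and reached 10 RPKM in 5 of 46 and 27 of 412. Of these 27 cells, 15 came from PLT mouse 1 and 3 from PLT mouse 2. Within the MUL mice S100a8 reached it in 1 of 10 against 2 of 68 and 1 of 17 against 1 of 68. Within the PEM mice the counts were 2 of 16 against 4 of 77 and 1 of 3 against 2 of 22. Without the marker-bearing cells Csf3r was at 10 RPKM or more in 11.7% and 17.6% of MUL, 17.2% and 10.5% of PEM and 0% of PLT cells. PLT mouse 1 had 13 cells with at least 3 neutrophil markers, and none of them had Csf3r at 10 RPKM, as no PLT cell had. The part of neutrophil transcripts in the Csf3r shares was not tested. Pooled over mice, Csf3r-high cells had a median of 2962 detected genes against 2458 in the others, which include all PLT cells. Within a mouse the medians lay closer. They were 2206 against 2216.5 and 2746 against 2432 in MUL, and 3237.5 against 3069 and 2755 against 2735 in PEM. The part of detected gene counts in the result was not tested. In cells with 1800 to 3000 detected genes the shares were 11.3% and 16.1% in MUL, 8.33% and 27.3% in PEM and 0% in PLT.

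Mean Csf3r of all cells was 16.7 and 25.3 RPKM in MUL, 19.7 and 12.9 in PEM, and 2.32 and 1.41 in PLT. The PLT mice lay below the other 4, and MUL and PEM overlapped. Group means were 21.0 ± 6.10, 16.3 ± 4.79 and 1.86 ± 0.642 RPKM (SD, n = 2 mice each). The difference on the log2(mean RPKM + 1) scale was -2.93 ± 0.68 (SE) for PLT minus MUL, -2.59 ± 0.68 for PLT minus PEM and -0.35 ± 0.68 for PEM minus MUL. None passed in limma (adjusted p = 0.471, 0.539 and 0.964), and Csf3r ranked 56, 101 and 7311 by unadjusted p. PLT minus MUL was -1.37 with a pseudocount of 10 and -0.90 when log2 values were averaged over cells, where the low band weighs more. A mean over cells cannot tell fewer positive cells from less RNA per cell, which is why shares and levels are given apart.

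**Figure D2:**
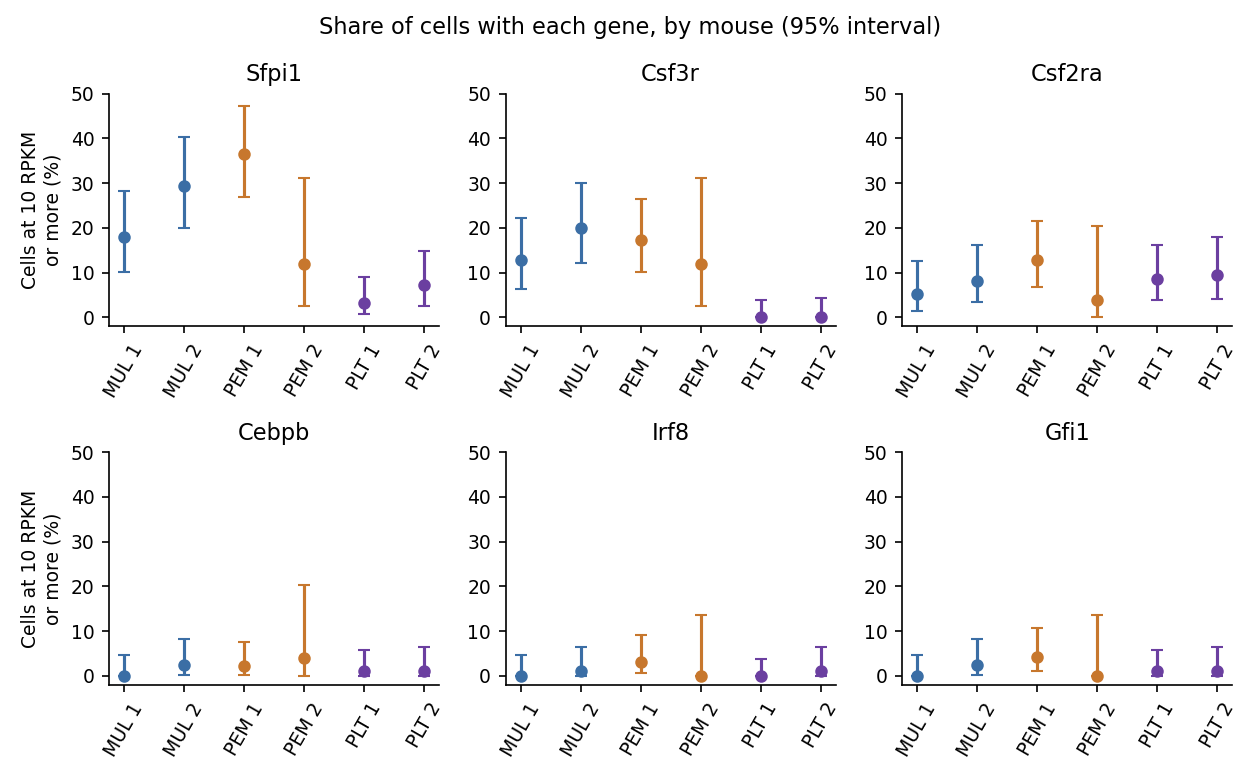
Percent of the cells of each mouse at 10 RPKM or more for 6 members, with exact 95% intervals that cover counting error. Csf3r is at 0% in both PLT mice and 12% to 20% elsewhere, Sfpi1 is at 3.23% and 7.14% in PLT and 12% to 36.6% elsewhere, and Csf2ra lies from 4% to 12.9% with the groups overlapping.

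Csf2ra, the GM-CSF receptor chain, did not share the order of the other receptor. It was found at the 1 RPKM threshold in 44 cells, namely 4 of 78 and 9 of 85 in MUL, 13 of 93 and 1 of 25 in PEM, and 9 of 93 and 8 of 84 in PLT. These are shares of 5.13% and 10.6%, 14% and 4%, and 9.68% and 9.52%, which overlap between all groups. Its median among those cells was 86.6 RPKM, and 40 of the 44 were at 10 RPKM or more. Mouse means were 4.19 and 7.73 RPKM in MUL, 9.89 and 11.5 in PEM, and 19.1 and 7.18 in PLT. In PEM mouse 2 a single cell at 287 RPKM carried 99.8% of the sum. PLT minus MUL was 0.93 ± 0.74 on the log2 scale (limma adjusted p = 0.784) and PEM minus MUL 0.79 ± 0.74 (adjusted p = 0.927). Csf1r, the macrophage receptor, was listed at 0 in 457 cells and at a trace of 0.047 RPKM in 1 PEM cell.

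The transcription factors other than PU.1 were rare. Cebpb was at 1 RPKM or more in 14 cells, namely 6 MUL, 5 PEM and 3 PLT cells, with a median of 7.93 RPKM and 1 PLT cell at 131. Cebpa was above 0 in 1 MUL cell, at 3.12 RPKM. Irf8 was at 1 RPKM or more in 2 MUL, 5 PEM and 1 PLT cells, with a median of 95 RPKM, and 5 of these 8 cells came from PEM mouse 1. Gfi1 was at 1 RPKM or more in 4 cells of each group, with a highest value of 337 RPKM in PLT mouse 1. All 4 MUL cells with Gfi1 came from mouse 2 and all 4 PEM cells from mouse 1.

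Of these rare genes, Irf8 and Gfi1 passed the filter for the fit, a mean of 1 RPKM or more in 2 or more mice. Irf8 means were 0 and 3.14 RPKM in MUL, 3.90 and 0.033 in PEM, and 0 and 1.11 in PLT. Gfi1 means were 0.0015 and 5.08, 2.70 and 0.0052, and 3.64 and 0.640 RPKM. Mice of 1 group differed as much as groups did. PLT minus MUL was -0.49 ± 1.02 for Irf8 and 0.16 ± 1.1 for Gfi1 on the log2 scale (limma adjusted p = 0.927 and 0.981). In all, 5 of the 9 members passed the filter and 0 were called in any comparison. Sfpi1 and Csf3r, 2 of these 5, had PLT means below both MUL mice, an order met in 24.9% of all genes. Their low PLT values were known when the genes were chosen.

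**Figure D3:**
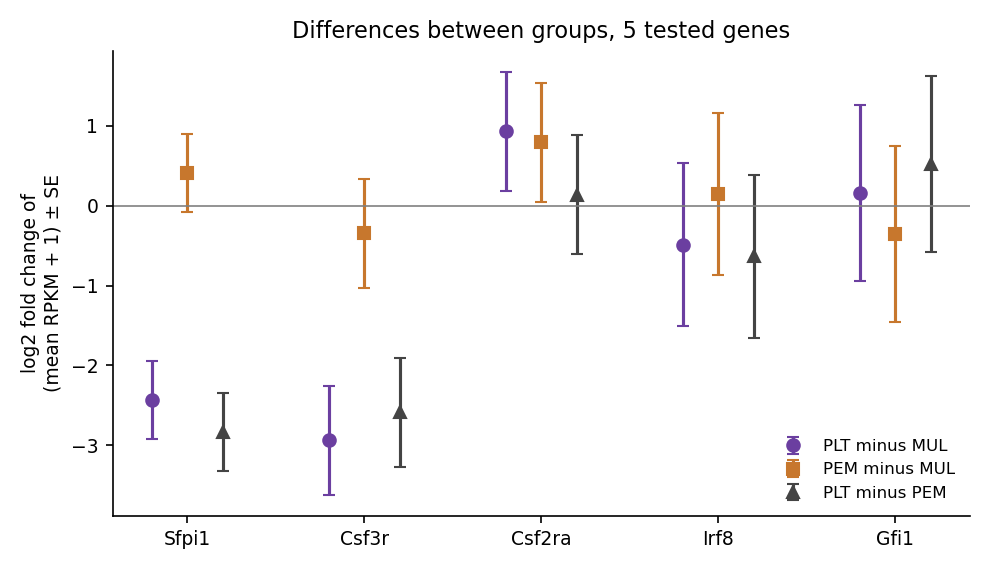
Difference in log2(mean RPKM + 1) with its standard error for the 5 tested members in 3 comparisons between groups of 2 mice. Sfpi1 and Csf3r lie between -2.43 and -2.93 in both comparisons with PLT, and the other 3 genes lie within 1 unit of 0.

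Mpo was listed at 0 in every cell of every mouse, as were 6889 genes in all. The granule protease genes Elane and Ctsg, which are switched on together with Mpo in promyelocytes, were listed at 0 in every mouse too. Another granule protease gene, Prtn3 (proteinase 3), was in contrast at 10 RPKM or more in 258 cells. Its means were 169 and 402 RPKM in MUL, 367 and 55.6 in PEM, and 220 and 61.9 in PLT, which overlapped between groups. The globin genes Hba-a2 and Hbb-b2 were also listed at 0 in every mouse. Without counts it cannot be checked whether these zeros are true absence of the transcript or a gene that was not quantified, so Mpo is given as listed at 0 and no more. Pooled over mice, Prtn3 reached 10 RPKM in 34 of 46 Csf3r-high cells and in 224 of 412 others, which include all PLT cells. By mouse it did so in 40 of 78 and 72 of 85 MUL cells and in 72 of 93 and 7 of 25 PEM cells. In PLT it did so in 40 of 93 and 27 of 84 cells. Because the mice differ in both genes, the pooled counts cannot tell whether Prtn3 and Csf3r go together within a mouse.

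Most cells carried at most 1 member at 10 RPKM or more. None was met in 309 cells, 1 in 118, 2 in 22, 3 in 7 and 4 in 2 cells. Sfpi1 and Csf3r were both at 10 RPKM or more in 17 cells, 2 and 7 in MUL and 7 and 1 in PEM. If both had been spread independently within each mouse, 13 such cells would have been counted, or 14.2 when counted within strata of similar detected gene count. The 17 cells were 20% of all 85 Sfpi1 cells and 37.0% of all 46 Csf3r cells. In PLT 0 cells had both, where Csf3r was at 0 by this threshold. At 1 RPKM, where Csf3r counts its low band, 80 cells had both against 78.7 by independence.

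Levels of both genes were read in the cells that had both. Sfpi1 ran from 19.5 to 649 RPKM with a median of 216, against 149 in the 68 cells that had Sfpi1 alone. Csf3r ran from 18.6 to 228 RPKM with a median of 151, against 91.5 in the 29 cells with Csf3r alone. Both medians were thus higher in cells with both genes, which is a description of cells that share mice and depth. Across these 17 cells Spearman's rho of the levels was 0.39, and across all cells, with each mouse centred, 0.25. Most Sfpi1 cells lacked Csf3r at this level and most Csf3r cells lacked Sfpi1.

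**Figure D4:**
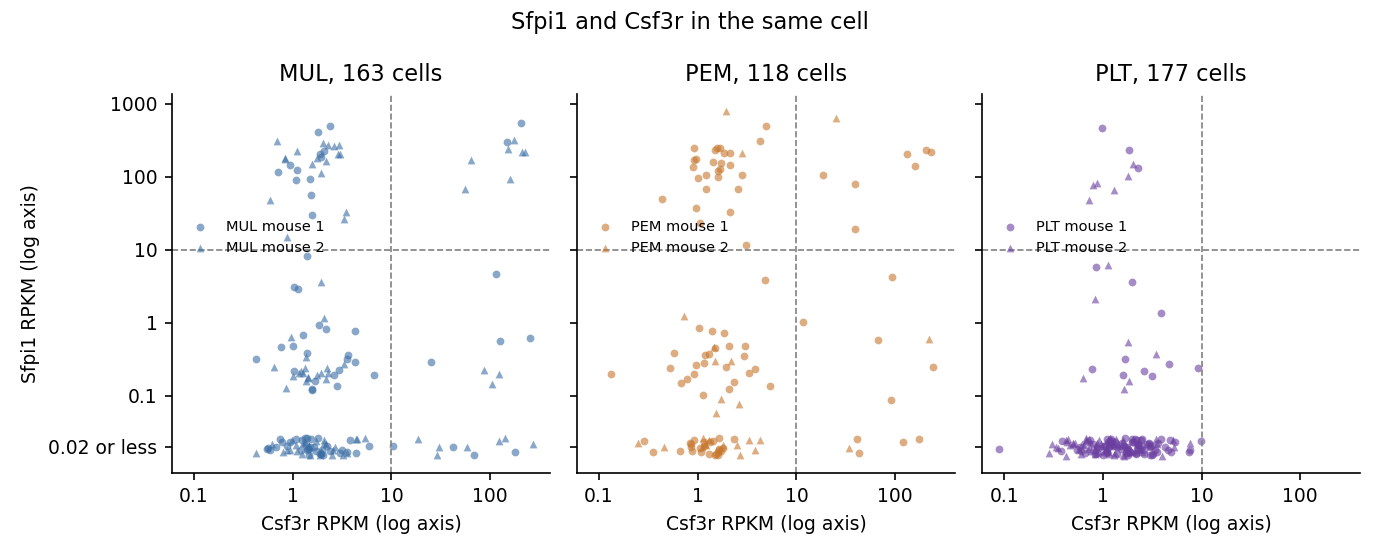
Csf3r against Sfpi1 RPKM in each cell on log axes, by group and mouse; Sfpi1 values of 0.02 or less are drawn around 0.02 with a small vertical scatter, and dashed lines stand at 10 RPKM. The area above both dashed lines holds 9 MUL, 8 PEM and 0 PLT cells, and most cells of either high band lie outside it.

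Csf2ra was set against both genes in the same way. It was at 10 RPKM or more in 11 of 85 Sfpi1 cells against 8.11 by independence, and in 7 of 46 Csf3r cells against 4.10. Within strata of the detected gene count 8.81 and 4.39 would be counted. These counts are small, and cells of 1 mouse are no replicates.

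Genes of other lineages were counted in the same cells at 10 RPKM or more. Flt3, the receptor kinase of lympho-myeloid progenitors, was rare, yet 7 of its 11 cells had Sfpi1, against 2.90 by independence and 3.39 within strata of detected genes. Of these 11 cells, 4 had Csf3r, against 1.95 and 2.45. Cd34, a surface protein of activated and later progenitors, was present in 17 of 46 Csf3r cells against 13.4 and 15.4 by the same measures, and in 22 of 85 Sfpi1 cells against 22 and 23.8.

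Gata1, the erythroid and megakaryocytic factor that opposes PU.1, was present in 8 of 85 Sfpi1 cells, against 9.94 by independence and 9.76 within strata. By group the counts were 2 against 2.55 in MUL, 3 against 6.08 in PEM and 3 against 1.32 in PLT (3.84, 4.44 and 1.49 within strata), so no common direction was seen. Gata2, the stem cell GATA factor, was present in 46 of 85 Sfpi1 cells against 35.1 and 37.2, and in 15 of 46 Csf3r cells against 18.6 and 19.3. Gfi1b was present in 28 Sfpi1 cells against 24.4 and in 9 Csf3r cells against 12.7. The platelet-lineage genes Vwf, Itga2b (CD41) and Pf4 were present in 27, 10 and 17 Sfpi1 cells against 24.4, 13.4 and 15. In Csf3r cells they were present in 11, 8 and 8 against 11.8, 7.44 and 7.37. Some cells thus had Sfpi1 and a platelet gene, at counts above independence for Vwf and Pf4 and below it for Itga2b. At 1 RPKM or more, Sfpi1 was met with Vwf, Itga2b and Pf4 in 33, 17 and 37 cells. Within strata of detected genes 34.9, 18.8 and 34.8 would be counted there. No link between Sfpi1 and these genes is read from such counts. For Vwf with Sfpi1 the counts by group were 4 against 4.97 in MUL, 17 against 16.7 in PEM and 6 against 2.79 in PLT (5.74, 16.6 and 3.96 within strata), and 5 of the 6 PLT cells came from mouse 2.

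The genes most like Sfpi1 and Csf3r over cells were found by the correlation of log2(RPKM + 1) with each mouse centred, among 6666 genes. For Sfpi1 these were 3110062M04Rik, Tsr3, S100a8, Thap2 and Txnl4b, with Pearson's r from 0.19 to 0.22. For Csf3r they were Cntn2, Zfp457, Ppapdc1b, Reep3 and Slfn4, with r from 0.19 to 0.25. Csf3r ranked 87 for Sfpi1 and Sfpi1 ranked 77 for Csf3r, both at r = 0.13. In sparse single-cell values such coefficients are no finding. Over the 6 mouse means the genes most like Sfpi1 were Cnksr3, Fermt3 and Muc13, with r of 0.99 each, and 92 genes exceeded 0.95. Fermt3, which encodes the integrin activator kindlin-3, had means of 141 and 226 RPKM in MUL, 208 and 226 in PEM, and 56.9 and 52.0 in PLT.

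The wider pathway was read in 5 lists of genes with known roles, none of which had a gene that passed in limma in any comparison. The lists were chosen with earlier results of these data known. Their shares beside those of all genes are therefore descriptions and no test of the pathway. Over all tested genes the median of PLT minus MUL was -0.18 on the log2 scale, which quantile normalization moved to 0.03, and list medians are to be read against it. Of 25 cytokine and pattern receptors, 20 were tested. Their median was -1.22 in PLT minus MUL, 15 of 20 were lower, and 60% had PLT means below both MUL mice, against 24.9% of all genes. The corresponding share above both MUL mice was 15%, against 14.8%. Their medians were -0.22 in PEM minus MUL and -0.57 in PLT minus PEM.

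Among the receptors with the smallest p were Ifngr1 and Tnfrsf1b. Ifngr1, a chain of the interferon-γ receptor, was at 140 and 194 RPKM in MUL, 130 and 84.4 in PEM, and 67.3 and 55.0 in PLT (-1.43 ± 0.39 for PLT minus MUL, limma adjusted p = 0.480). Tnfrsf1b, a receptor for tumour necrosis factor, was at 16.1 and 11.2, 7.44 and 16.3, and 2.49 and 3.13 RPKM. In both genes the PLT mice lay below the other 4. They were picked by their small p in PLT minus MUL, and PLT means below both MUL mice were met in 24.9% of all genes.

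Of the JAK-STAT and kinase genes that act below these receptors, 22 of 23 were tested. Their median was -0.64 in PLT minus MUL, 18 were lower, and 40.9% lay below both MUL mice against 24.9% of all genes. Above both MUL mice lay 13.6%, against 14.8%. The genes with the smallest p were Cish, Shc1 and Socs1. Cish, a STAT5-induced inhibitor of cytokine signalling, was at 44.5 and 39.6 RPKM in MUL, 28.9 and 20.1 in PEM, and 6.69 and 9.04 in PLT (-2.29 ± 0.53, limma adjusted p = 0.471). Shc1, an adaptor of receptor kinases, differed by -2.33 ± 0.83 and Socs1, another feedback inhibitor, by -2.31 ± 0.96. Socs1 was listed at 0 in PLT mouse 1.

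The blood transcription factors that work with or against PU.1 were divided in direction. All 16 were tested, with a median of -0.05 in PLT minus MUL, 9 lower and 7 higher. Of them 6.25% lay below both MUL mice, against 24.9% of all genes, and 18.8% above both, against 14.8%. Lyl1, a stem cell factor, differed by -1.43 ± 0.58. Fli1, an ETS factor of HSCs and megakaryocytes, was at 145 and 85.3 RPKM in MUL, 115 and 83.0 in PEM, and 256 and 161 in PLT (0.86 ± 0.42, limma adjusted p = 0.625). Both PLT mice lay above the other 4 for Fli1, which was named for its small unadjusted p in this comparison. Further ETS genes of the lists are not shown here, so no direction of the ETS family can be read from Fli1 and Sfpi1. Klf1, the erythroid factor, ranged from 0 to 67.1 RPKM with mice of the same group far apart.

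Of 30 other myeloid transcription factors 21 were tested, with a median of -0.49 in PLT minus MUL, 15 lower and 6 higher. Below both MUL mice lay 47.6%, against 24.9% of all genes, and above both 4.76%, against 14.8%. Irf1, an interferon-induced factor, was at 41.0 and 52.4 RPKM in MUL, 38.9 and 39.5 in PEM, and 8.06 and 11.2 in PLT (-2.17 ± 0.49, limma adjusted p = 0.461). Jun and Junb, subunits of AP-1, differed by -2.46 ± 1.01 and -2.14 ± 0.90. Of Jun the mean was 0 RPKM in PEM mouse 2 as well, so its low values were not limited to PLT.

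Of 37 myeloid and pan-leukocyte effector genes 35 were tested. Their median was -0.72 in PLT minus MUL with 30 lower. Below both MUL mice lay 40%, against 24.9% of all genes, and above both 2.86%, against 14.8%. In PEM minus MUL the median was 0.19, against -0.04 over all genes, and 22.9% lay above both MUL mice, against 17.5% of all genes. In PLT minus PEM the median was -0.94, against -0.13 over all genes. Ctss (cathepsin S, a protease of antigen-presenting cells) was at 24.8 and 58.7 RPKM in MUL, 28.4 and 77.8 in PEM, and 0.0055 and 4.23 in PLT (-4.10 ± 0.92, limma adjusted p = 0.461). Vav1, a signalling exchange factor of blood cells, was at 47.7 and 48.7, 55.7 and 50.3, and 13 and 7.18 RPKM (-2.20 ± 0.49). Coro1a, a leukocyte actin regulator, was at 104 and 198, 231 and 252, and 50.1 and 53.3 RPKM (-1.46 ± 0.40). PLT mouse 1 had the lowest Ctss of the 6 mice together with the second highest sums of neutrophil and of monocyte markers given above. How these values relate was not tested.

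**Figure D5:**
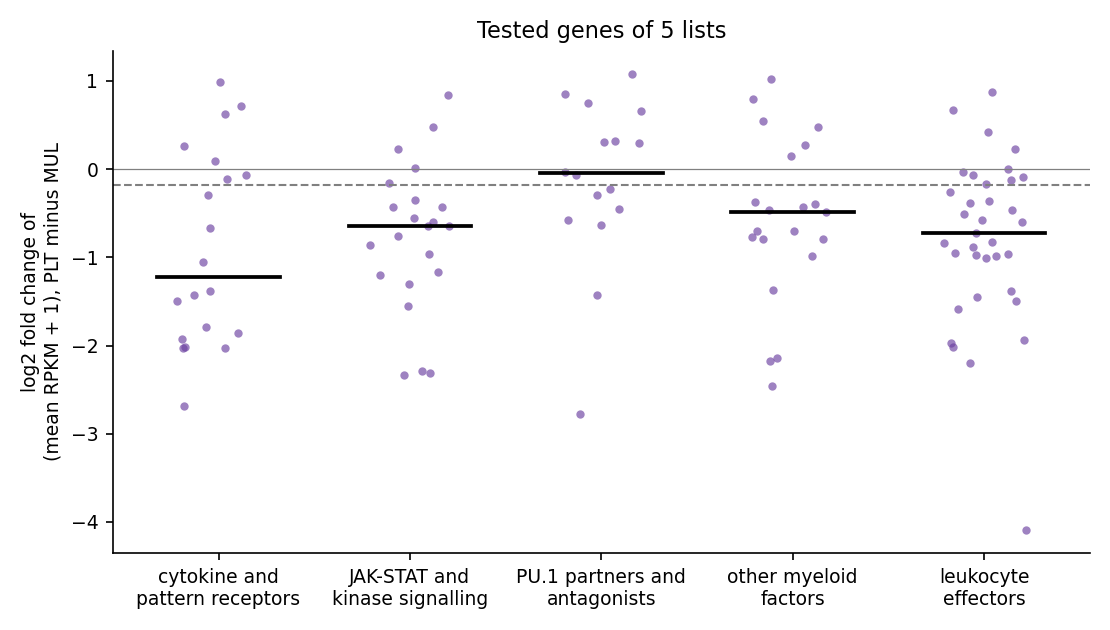
Difference in log2(mean RPKM + 1), PLT minus MUL, for each tested gene of 5 lists, with black bars at list medians and a dashed line at the median of all tested genes (-0.18). The receptor, signalling and effector medians lie at -1.22, -0.64 and -0.72, and that of the PU.1 partners at -0.05; no gene shown passed adjustment.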

How the data were processed

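Per the labels, single HSCs were index sorted and the SMARTer Ultra Low kit was used for the libraries. The deposited table holds RPKM values that the authors made; TopHat, featureCounts and mm10 are named in the submitters' processing notes, with versions and gene lengths not given in the sources used here. A second deposited table gives mapped read counts, detected gene counts and the percent of mitochondrial reads for each cell, per the file headers. It also gives the mouse, which matched the title prefix in 458 of 458 cells. No cell was filtered out and no doublet caller was run. Whole reads were not recovered from RPKM, so no count model was fitted.

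Each mouse entered as its mean RPKM over cells. Genes whose mean reached 1 RPKM in 2 or more of 6 mice (11337) were fitted as log2(mean RPKM + 1) in limma 3.58.1 (R 4.3.3), with 1 mean per group, trended eBayes and Benjamini-Hochberg adjustment over all of them at 0.05; this scale understates changes of low genes. Replicates are mice, numbered in accession order. A cell was counted as positive at 1 RPKM, or at 10 where stated. The 9 members and all lists were chosen with earlier results of these data known. Named besides the members were the 3 genes of smallest unadjusted p per list in PLT minus MUL, the genes most like Sfpi1 and Csf3r, and 8 partner genes; 1 gene named by this rule is not reported here. Other marker lists served the check of cell identity: summed megakaryocyte markers were 363 to 1628 RPKM per mouse, mature erythroid 1036 to 1956, B cell 26.3 to 331, T and NK cell 66.6 to 222, and neutrophil precursor 62.5 to 405. Positions come from GENCODE M21 and promoters from RefSeq (GRCm38.p6). Alternatives changed the pseudocount, filter, scaling, summary, cells, groups and mice.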

Additional observations from a re-analysis of the deposited data

How the results depend on the processing

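Sfpi1 and Csf3r stayed lower in PLT than in MUL under all 16 alternatives each, from -2.65 to -1.46 and from -3.44 to -0.90. Alternatives that changed the filter, left out the PEM group or left out a PEM mouse kept the PLT and MUL means. Those could not move the difference and are no check of it. With 2 mice in every group fitted, neither gene passed (limma adjusted p 0.210 to 0.994 and 0.327 to 0.994). Genes called in PLT minus MUL numbered 1, but 0 with a pseudocount of 0.1, with log2 values averaged over cells, in cells with 1800 to 3000 detected genes, with the groups of the contrast alone, and in each fit without 1 mouse (0 to 0). They numbered 2 with a pseudocount of 10, 2 with a filter at 5 RPKM, 4 with quantile normalization and 19 without a filter, where PEM minus MUL gave 9 and PLT minus PEM 4 against 0 each. The cause was not tested. Counting values above 0, the share of cells in PLT minus MUL was -39.1 points for Sfpi1, against -19.4, and 0 for Csf3r, against -14.1, because every cell has Csf3r above 0. The -14.1 points at 1 RPKM rest on PLT mouse 2, with a share of 54.8%. PLT mouse 1 had 82.8%, and the MUL mice 83.3% and 82.4%. Observed over expected co-detection of both was 1.02, and 1.31 at 10 RPKM or 1.24 there without neutrophil-marker cells. This last alternative was chosen after seeing the data, as were the Csf3r shares at 10 RPKM within subsets and within P1 and P2 cells.

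Uncalled members with few positive cells changed sign. Gfi1 in PLT minus MUL was -0.028 with a pseudocount of 10 and -0.0041 with log2 values averaged over cells, where PEM minus MUL was 0.013 and PLT minus PEM -0.017. Without neutrophil-marker cells Gfi1 in PEM minus MUL was 0.017 and Csf2ra -1.07. In cells with 1800 to 3000 detected genes PEM minus MUL was 0.30 for Csf3r, -0.83 for Csf2ra and -0.11 for Irf8. Leaving out 1 mouse at a time gave -1.51 to 0.54 (Irf8) and -1.14 to 1.46 (Gfi1) in PLT minus MUL, -0.98 to 1.27 and -1.66 to 0.95 in PEM minus MUL, and -1.76 to 0.49, -0.42 to 1.46 and, for Csf2ra, -0.51 to 0.79 in PLT minus PEM. A group left with 1 mouse is assumed to vary like the others. No paired analysis was possible because mouse numbers follow accession order and tie no mice across groups. With 2 mice a group and 25 cells in PEM mouse 2, small differences in shares were not detectable.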
